A study of Homo sapiens with 2 samples.

Results

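The cells described here were chosen by the transcripts of 5 genes, UPK3B, PITX1, DKK2, SERPINE3 and BDKRB1, in a culture of the embryonic stem cell line HES2, of human origin, that had been differentiated towards pacemaker cells of the sinoatrial node. Droplet barcodes had to hold at least 1000 detected genes, at most 25% mitochondrial transcripts, at most 35000 unique molecular identifiers (UMIs, each 1 counted transcript) and TNNT2, the cardiac troponin T gene, under 1000 CPM (counts scaled to a common library total of 1e6). Among those, a cell was a member where the 5 genes together gave at least 4 UMIs and at least 2 of the 5 were detected. Members numbered 361 of 14829 barcodes, 11211 of which passed the first 3 limits. They made up 6.88% of the 5246 cells with low TNNT2 (exact 95% binomial interval 6.21 to 7.6%, counting error only). The other 4885 cells with low TNNT2 are the comparison. The 5965 cells with TNNT2 at 1000 CPM or more, in which the cardiac myosin gene MYH6 reached 6450 CPM, serve as a second reference. Their own transcripts, RNA carried over in droplets and droplets with more than 1 cell were not told apart. Their levels are therefore no measure of carried-over RNA alone.

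From this 1 culture came 2 libraries that share their cells: polyA RNA was counted in 1 of them, and in the other the oligonucleotide tag of an antibody to human CD34, TotalSeq A0054. All cells share the line and the differentiation, and no untreated or second culture was used here. The live single cells were sorted with DAPI, a dye that enters dead cells, and not by CD34. With 1 culture there is no replicate: cells are not independent samples, so no test was made, and the intervals of levels, ratios and shares below cover counting error only. Those of antibody-tag medians treat the cells of 1 culture as separate draws, so they hold for this culture only. The spread over cells is given by the quartiles.

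The epicardium is the mesothelial sheet that covers the heart. It is known to form from the proepicardium, to carry the transcription factors WT1, TCF21 and TBX18 and the retinaldehyde dehydrogenase ALDH1A2, and to give rise to fibroblasts and mural cells when its cells leave the sheet. UPK3B encodes a uroplakin that also marks mesothelium. PITX1 is a homeodomain transcription factor known for its part in hindlimb and pituitary development. DKK2 is a secreted regulator of WNT signalling that binds LRP5 and LRP6, BDKRB1 is the inducible B1 receptor for kinin peptides, and SERPINE3 belongs to the serpin family of protease inhibitors.

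The promoters of UPK3B and BDKRB1 are shown because these genes were detected in the most members. Each sequence is the 250 bases before the gene's start in RefSeq on GRCh38.p14, written 5′ to 3′, at chr7:76510302-76510551 for UPK3B and at chr14:96255960-96256209 for BDKRB1, both on the plus strand. Capitals mark GGGCGG, the GC box, on either strand.
UPK3B: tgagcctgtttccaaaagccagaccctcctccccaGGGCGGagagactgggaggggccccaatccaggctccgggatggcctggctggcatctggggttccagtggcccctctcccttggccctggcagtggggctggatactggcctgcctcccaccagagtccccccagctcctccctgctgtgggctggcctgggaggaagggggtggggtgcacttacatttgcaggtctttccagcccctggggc
BDKRB1: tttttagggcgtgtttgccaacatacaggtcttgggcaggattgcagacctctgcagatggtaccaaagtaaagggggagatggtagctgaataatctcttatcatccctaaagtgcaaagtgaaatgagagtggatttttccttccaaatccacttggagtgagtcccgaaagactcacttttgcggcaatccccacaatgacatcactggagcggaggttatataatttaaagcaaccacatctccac
The UPK3B window held 1 GC box at a GC content of 67.2%, and the BDKRB1 window held none at 44.8%. The window before the start of SERPINE3 (GC content 58%) also held none, and 42.6% of 35116 RefSeq promoters held at least 1. Further short motifs were searched on both strands, and none of the 3 windows held any of them. The core bound by PITX factors, TAATCC, was in 5.62% of all promoters. That bound by cardiac zinc-finger factors, AGATAA, was in 9.17%. The core of TEAD factors, GGAATG, was in 11.9%. The box of core promoters, TATAAA, was in 10.7%. A match or its absence describes only these letters. The window listed for PITX1 lies inside the span of the gene and was left out, and DKK2 was not matched.

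Members were deep cells. Their median was 22097 RNA UMIs (5th to 95th percentile 10262 to 33039) and 5300 genes, against 16980 UMIs and 4681 genes in the other cells with low TNNT2 and 16100 UMIs in the cells with high TNNT2. Mitochondrial transcripts took a median of 4.93% in members, 5.76% in the other low cells and 11.6% in the high cells. Because the rule needs 4 UMIs, depth and membership are linked; levels are therefore given as CPM of counts summed over cells, and shares of cells also after thinning to a common depth. Scrublet, which scores likely doublets (droplets with more than 1 cell), called 27 members (7.48%) and 141 of the other low cells (2.89%). These cells were kept, and results without them are in the closing section.

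The 5 selecting genes are given as a description, since they chose the cells. UPK3B, at chromosome 7 76510552 to 76516522, stood at 318.7 CPM in members, 21.8 in the other low cells and 5.02 in the high cells. It was detected in 77.6% of members, with a median of 4 and a maximum of 60 UMIs per cell. BDKRB1 (chromosome 14, 96256210 to 96264763) was the gene most often detected, in 88.6% of members, at 243.5 CPM against 8.98 in the other low cells. SERPINE3 (chromosome 13, 51339691 to 51364735) was detected in 39.9% of members at 100.8 CPM, against 0.312 CPM. DKK2 (chromosome 4, 106921802 to 107036313) was detected in 38.2% at 264.7 CPM, against 1.93 CPM. PITX1 (chromosome 5, 135027734 to 135034789) was the least often detected, in 28.8% of members, at 128.8 CPM against 0.42 CPM.

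Few members carried the whole set. Exactly 2 of the 5 genes were detected in 182 members (50.4%), 3 in 116, 4 in 41 and all 5 in 22. UPK3B and PITX1 were found together in 57 members (15.8%), and UPK3B and DKK2 in 60 (16.6%). PITX1 and DKK2 were found together in 84 (23.3%). Over the 361 cells, Spearman's rho of CPM was 0.67 for PITX1 with DKK2, −0.63 for UPK3B with DKK2 and −0.41 for UPK3B with PITX1. UPK3B and SERPINE3 gave 0.48. These cells share a library, and the rule itself shapes these values, because a cell low in 1 gene must hold another to be a member.

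**Figure D1:**
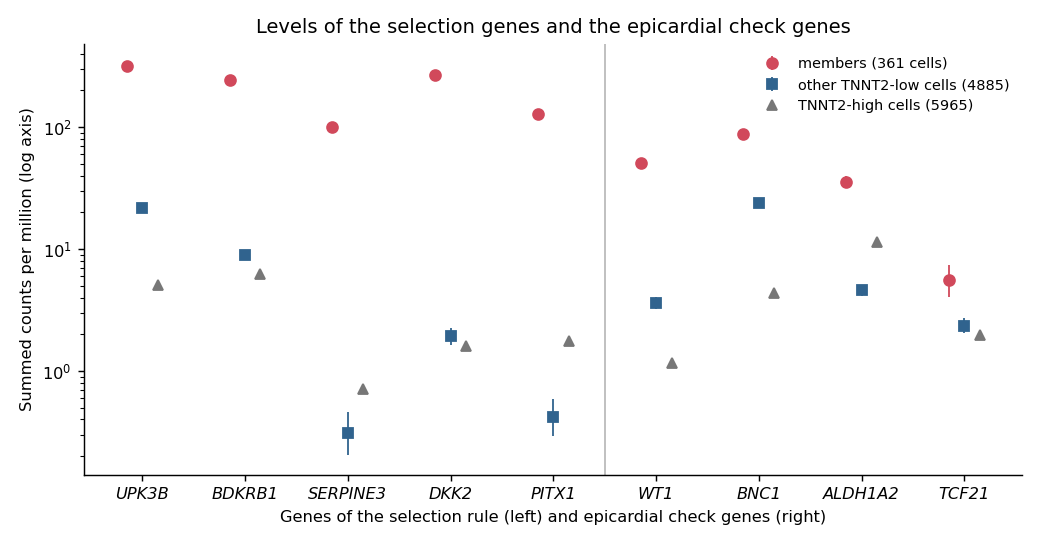
CPM of summed counts on a log axis for the 5 selecting genes (left of the line) and the 4 epicardial check genes (right) in members (circles), other cells with low TNNT2 (squares) and cells with high TNNT2 (triangles); bars are exact 95% Poisson intervals, drawn for the first pair of groups and smaller than most symbols. WT1 stood at 50.8 CPM in members against 3.6 in the other low cells, while TCF21 reached 5.52 CPM.

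Identity was checked with WT1, BNC1, ALDH1A2 and TCF21, which the rule did not use. WT1, a zinc-finger transcription factor of the epicardium and mesothelium, was at 50.8 CPM in members, 3.6 in the other low cells and 1.17 in the high cells, a ratio of 14.1 (12.1 to 16.5) to the other low cells. BNC1, the zinc-finger protein basonuclin 1, found in epithelia and mesothelium, was at 88 CPM against 24 and 4.37, a ratio of 3.66 (3.36 to 4). ALDH1A2, the main enzyme of embryonic retinoic acid synthesis, was at 35.4 CPM against 4.58 and 11.3, a ratio of 7.73 (6.6 to 9.04). TCF21, a basic helix-loop-helix factor of epicardium and its fibroblast descendants, was low everywhere, at 5.52 CPM against 2.35 and 1.97, with 44 counts in all members. Summed, the 4 check genes were 5.2 times as high in members as in the other low cells (4.88 to 5.55). The levels of WT1 and BNC1 were ordered members, other low cells, high cells, whereas ALDH1A2 was higher in the high cells than in the other low cells.

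At a common depth the order for WT1 was the same. After thinning to 5000 UMIs, WT1 was detected in 21.7% of members (17.6 to 26.4; 2 shallower cells left out), in 1.48% of the other low cells (225 left out) and in 0.36% of the high cells (416 left out), the last taken as background. Unthinned shares were 47.9%, 3.4% and 1.3% at the median depths given above. BNC1 was thinned to 34.8% of members, 10.1% of the other low cells and 2.09% of the high cells (unthinned 67.9%, 27.4% and 5.6%). ALDH1A2 was in 8.36% of members (5.71 to 11.7), 1.35% of the other low cells and 4.79% of the high cells (unthinned 16.9%, 3.01% and 11.4%). TCF21 was at 2.23% of members (0.967 to 4.34, unthinned 7.2%) and at 1.06% of the high cells (unthinned 2.6%). These shares are too close to read as expression in most members. At least 2 of the 4 check genes were detected in 44.9% of members, 3.11% of the other low cells and 1.86% of the high cells, unthinned. At least 1 was detected in 79.5%, 32.4% and 18.7% in that order.

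The members were not uniform, and the epicardial name held for only some of them. For description they were divided, after their values had been seen, by the sum of PITX1 and DKK2 at 2 UMIs. On that division 139 members had at least 2 UMIs of PITX1 and DKK2, 45 of them with at least 2 UMIs of UPK3B and 94 with fewer (called without UPK3B), and 222 had at most 1 (called without PITX1/DKK2). The rule shapes this division, because a member with at most 1 UMI of PITX1 and DKK2 qualified mainly by the other selecting genes. UPK3B was detected in 98.2% of the 222 and in 44.6% of the 139. The contrasts between these kinds are therefore a description. WT1 was at 76 CPM in the 222 members without PITX1/DKK2 and at 14.7 CPM in the 139 with it, a ratio of 5.18 (3.82 to 7.16). BNC1 was at 123.5 against 37 CPM, and ALDH1A2 at 59.6 against 0.611 CPM, the latter from 2 counts (ratio with over without 0.0103, 0.00124 to 0.0374). TCF21 was at 6.17 against 4.58 CPM, and its interval for the ratio spanned 1 (0.37 to 1.43). At least 2 check genes were detected in 65.8% of the members without PITX1/DKK2, in 24.4% of the 45 with both and in 5.32% of the 94 without UPK3B. The last share lay near the 3.11% of the other low cells (its interval was 1.75 to 12%).

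**Figure D2:**
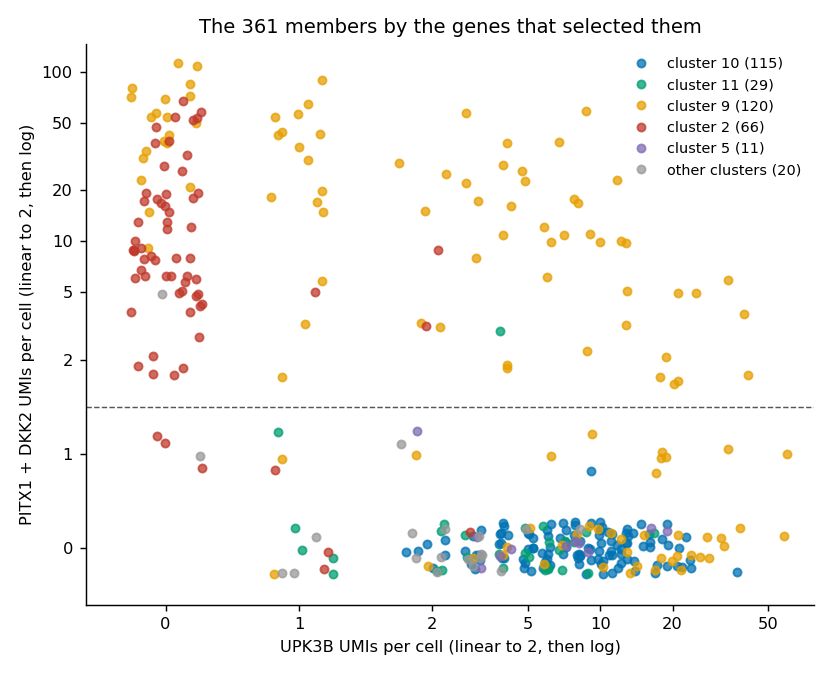
UMIs of UPK3B (x axis) against the sum of PITX1 and DKK2 UMIs (y axis) in each of the 361 members, each axis linear to 2 and logarithmic above, with small random offsets so that points do not hide each other; colour gives the cluster and the dashed line the division at 2 UMIs. Members of clusters 10 and 11 lie along the bottom with UPK3B, those of cluster 2 along the left with PITX1 and DKK2, and those of cluster 9 in both places and between them.

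Clustering the cells with low TNNT2 without the 5 selecting genes gave 14 clusters. Of the members, 341 (94.5%) lay in 5 of them, and 20 were spread over 9 others, of which 1 held none. Cluster 9 was almost wholly members, 120 of 124 cells, with 42 members with PITX1/DKK2 and UPK3B, 36 without UPK3B and 42 without PITX1/DKK2. Its leading genes were RGS4, AMIGO2, SLC16A3, CRYGD and AKR1B10. Cluster 10 held 115 members among 153 cells, all of them without PITX1/DKK2, and was led by LHX9, SLC34A2, SPRR2F, RPRM and PTGS1. Cluster 11 held 29 members among 84 cells, 28 of them without PITX1/DKK2, and was led by SBSPON, ITLN1, ALDH1A2, PRG4 and SFRP5. Cluster 2 held 66 members among 534 cells, 57 of them with PITX1/DKK2 and without UPK3B, and was led by LAMP5, C7, ELN, GREM1 and ASPN. Cluster 5 held 11 members among 628 cells. Cells were clustered on these genes, so the levels by cluster that follow are a description.

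Members in clusters 10 and 11 carried WT1 and BNC1, and those in cluster 11 also ALDH1A2. In cluster 10 WT1 was at 109.5 CPM, BNC1 at 156.9, ALDH1A2 at 21.1 and TCF21 at 4.74, and 98 of 115 members (85.2%) held at least 2 check genes. In cluster 11 WT1 was at 88.8 CPM, BNC1 at 101.6, ALDH1A2 at 329.3 and TCF21 at 24.3, and 28 of 29 members (96.6%) held at least 2. TBX18, the T-box factor of epicardium and sinus venosus, was at 84.5 CPM in the members in cluster 11 and at 3.88 in those in cluster 10. Its level in the cells with high TNNT2 was 83.1 CPM. In cluster 9 WT1 was at 20.9 CPM, BNC1 at 80.3, ALDH1A2 at 1.1 and TCF21 at 1.83, and 25% of members held at least 2. In cluster 2 WT1 was at 19 CPM, BNC1 at 10.2, TCF21 at 6.98 (11 counts) and ALDH1A2 at 0 counts, and 7.58% held at least 2. TCF21 was thus above its level in clusters 9 and 10. After thinning to 5000 UMIs WT1 was detected in 13.6% of the members in cluster 2 and 8.4% of those in cluster 9. The levels of BNC1 and ALDH1A2 and the share with at least 2 go against the epicardial name for these 66 cells. The 11 members in cluster 5 go against it too: WT1, TCF21 and ALDH1A2 were at 0 counts in them, BNC1 was at 97.4 CPM, EPCAM at 666 and GABRP at 594.3, and none of the 11 held 2 check genes, which allows a share of up to 28.5% (exact 95% interval). The members are therefore called here by UPK3B and PITX1, both genes of the rule, although few held PITX1.

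**Figure D3:**
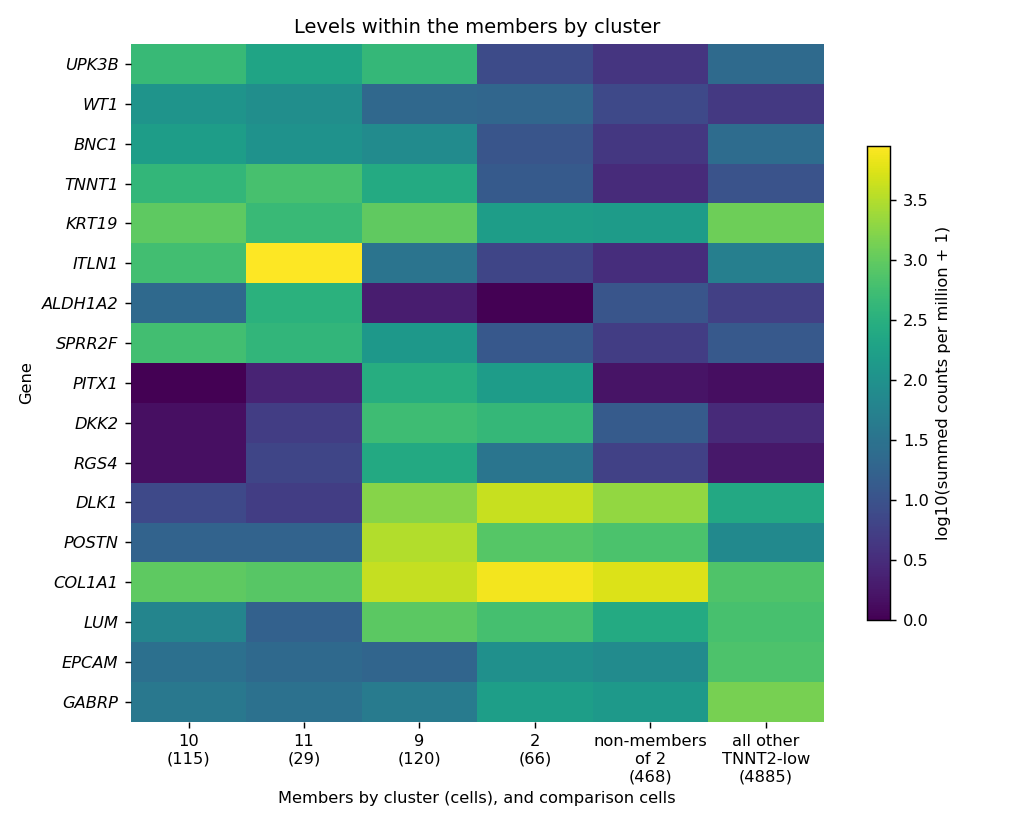
Heat map of log10(CPM of summed counts + 1) for 17 genes (rows) in the members of clusters 10, 11, 9 and 2, in the non-members of cluster 2 and in all other cells with low TNNT2 (columns, cell numbers in parentheses). WT1, BNC1 and TNNT1 are high in clusters 10 and 11, DLK1, POSTN and COL1A1 in clusters 9 and 2, and EPCAM and GABRP in the other cells.

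Against the other cells with low TNNT2, members had epithelial and surface-ectoderm genes at lower levels and 5 of 8 measured epicardial and mesothelial genes at higher levels. The summed level of fibroblast genes was above that of the other low cells in all members together but not in the 222 without PITX1/DKK2. Of 3635 genes with at least 50 CPM in either group, 270 (7.43%) were at a ratio of 2 or more and 306 (8.42%) at 0.5 or less. The selecting genes, TNNT2 and mitochondrial and ribosomal protein genes were left out, and the median ratio of all measured genes was 0.957, a log2 ratio of −0.06. These counts are sizes of ratios and not tests.

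Epithelial and surface-ectoderm genes were the groups furthest below. All 10 measured genes of the amnion and surface-ectoderm list were at 0.5 or less, with a median log2 ratio of −3.01. GABRP, the pi subunit of the GABA-A receptor, was at 143.7 CPM in members and 1356 in the other low cells. TFAP2A, a transcription factor of surface ectoderm, was at 13.6 against 123.8 CPM, VTCN1, an immune checkpoint ligand of amnion, at 55.1 against 465.8 CPM, and GATA3 at 21.1 against 168.8 CPM. All 9 measured epithelial adhesion genes were also at 0.5 or less (median −2.91). They included EPCAM, an epithelial adhesion molecule, at 94.5 against 708.1 CPM, the tight-junction gene CLDN4 at 49.7 against 517.1 CPM, and E-cadherin, CDH1, at 39.8 against 119 CPM. In all members together, most of these genes were near their levels in the cells with high TNNT2. There GABRP was at 144.7, TFAP2A at 12.8 and CLDN4 at 59.5 CPM. EPCAM and CDH1, at 151 and 11.9 CPM there, were not near. The pooled levels hid a spread over clusters. GABRP was at 594.3 CPM in the members in cluster 5 and 160.4 in cluster 2, but at 43.6, 37.1 and 28.6 in clusters 9, 10 and 11. CLDN4 was at 210.1, 52, 23.5, 13.8 and 4.3 CPM in the same order. ESRP1, an epithelial splicing regulator in the adhesion list below the 50 CPM limit, was not lower in members. It was at 39.3 CPM in members, 37.5 in the other low cells and 4.12 in the high cells.

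Keratins were split. KRT19, a keratin of simple epithelia and mesothelium, was at 789.3 CPM in members and 1203 in the other low cells, a ratio of 0.656, and at 130.7 CPM in the high cells. By cluster it was at 949.4 CPM in the members in cluster 10, 976.4 in cluster 9 and 475.3 in cluster 11, and at 159.2 in cluster 2. Of the 5 measured keratins 3 were at 0.5 or less. Members in clusters 9 and 10 thus held KRT19 beside low EPCAM (18.3 and 27.6 CPM), while the other low cells held both.

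**Figure D4:**
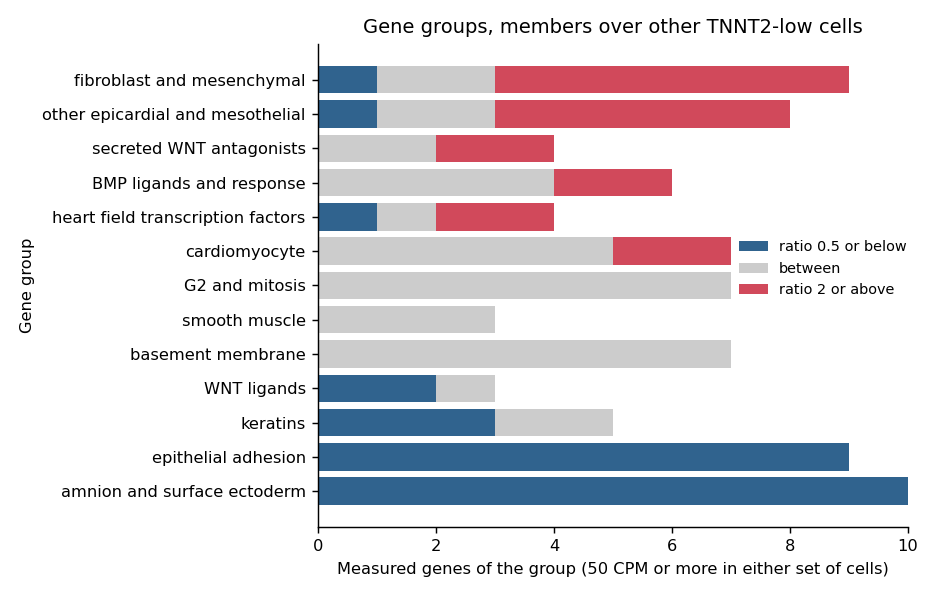
Number of measured genes (x axis) in each of 13 gene groups (y axis) at a ratio of 0.5 or below (blue), between (grey) and 2 or above (red), members over other cells with low TNNT2. All 10 amnion and surface-ectoderm genes and all 9 epithelial adhesion genes are below, and 6 of 9 fibroblast genes are above.

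Other epicardial and mesothelial genes were mostly higher in members, with 5 of 8 measured genes at 2 or more and 1 at 0.5 or less (median log2 ratio 1.77). The list was chosen with earlier results of these data known, so this count is a description. Its genes ITLN1 and TNNT1 are also among the 15 highest ratios. ITLN1, a secreted lectin of mesothelium, was at 957.1 against 49 CPM, but 8917 CPM of it stood in the 29 members in cluster 11, against 560.9 in cluster 10, 31.5 in cluster 9 and 5.71 in cluster 2. TNNT1, the slow skeletal troponin T, was at 267.5 against 9.3 CPM and was spread more evenly, at 624.2, 407.9 and 260.7 CPM in clusters 11, 10 and 9 and at 12.1 in cluster 2. LRP2, the endocytic receptor megalin, was at 146.6 against 28.2 CPM, SULF1, a heparan sulphate editing enzyme, at 238.4 against 49.1, and BNC2, the paralogue of BNC1, at 77.3 against 32.2. SEMA3D, a secreted guidance factor, was lower, at 16.6 against 54.3 CPM, and DMKN, a secreted epithelial protein, had a ratio of 0.983 (0.915 to 1.06). Mesothelin, MSLN, a surface glycoprotein of mature mesothelium, stayed below the 50 CPM limit at 5.65 CPM in members, with 15.1 in cluster 10. UPK1B, another uroplakin, was at 2.76 CPM, so UPK3B was the sole uroplakin above the limit.

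The fibroblast list had 6 of 9 measured genes at 2 or more and 1 at 0.5 or less (median log2 ratio 1.62). COL1A1 and COL1A2, the chains of type I collagen, were at 3211 against 730.2 CPM and at 2040 against 637.5 CPM. POSTN, periostin, was at 1253 against 73.7 CPM, DCN, decorin, at 1655 against 537.9, THY1 at 250.2 against 68.7 and MGP, matrix Gla protein, at 986.5 against 345.6. FBLN1, fibulin 1, was lower at 444.6 against 1474 CPM. Vimentin, VIM, the intermediate filament of mesenchyme, was at 2130 against 439.2 CPM, and ran from 1908 CPM in the members in cluster 9 through 2295 in cluster 2 and 2316 in cluster 11 to 2795 in cluster 10, with 5.12 in the 11 members in cluster 5. Fibronectin, FN1, was at 814.6 against 1440 CPM. The summed list was at 15845.5 CPM in members, 7447 in the other low cells and 1301 in the high cells. That sum was at 28287.6 CPM in the 139 members with PITX1/DKK2 and at 7181 in the 222 without. By cluster it was at 28483.1 CPM in the members in cluster 2 and 23126.3 in cluster 9. In clusters 10, 5 and 11 it was at 5244, 4683 and 3907. Of the 120 members in cluster 9, 42 were without PITX1/DKK2, and the level in those 42 alone was not taken. The contrast by PITX1/DKK2 is thus not separated from that by cluster.

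The 15 genes with the highest ratios differed in which members held them. RGS4, a brake on G-protein signalling, had the highest, at 92.7 against 0.767 CPM (ratio 120.8, 93.5 to 158.6). It was at 250.1 CPM in the members in cluster 9, 33 in cluster 2, 5.73 in cluster 11 and 0.431 in cluster 10. AMIGO2, an adhesion protein, SLC16A3, the lactate exporter MCT4, and HGF, hepatocyte growth factor, were also led by cluster 9, at 146.3, 204.2 and 154.4 CPM there. PDPN, podoplanin, a mucin-like protein of mesothelium and lymphatic vessels, was at 227 CPM in members and 512.9 in cluster 9. PLA2G2A, a secreted phospholipase, was at 245.1 against 3.11 CPM and was high in clusters 11 (718.7), 2 (320.3) and 9 (279.8) and low in 10 (27.2). It was detected in 29.1% of members. COL8A2, a network collagen, was at 73 against 1.22 CPM, and COL11A1, a minor fibril collagen, at 145.3 against 6.43. ANKS1B was at 154.8 CPM in cluster 10 and 90.2 in cluster 9 and under 5 in clusters 2 and 11. SPRR2F, a small proline-rich protein, was at 575.6 and 398 CPM in clusters 10 and 11, and SERPINB9, an intracellular inhibitor of granzyme B, was at 91.5 against 4.57 CPM. The remaining genes of the 15 were TNNT1 and ITLN1, described above, and TCEAL2 and ASPHD1.

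The 15 lowest ratios ran from 0.0676 for NDNF (9.29 against 137.3 CPM) to 0.114 for HAPLN1, a hyaluronan link protein (26.9 against 236.6 CPM). WNT6, a WNT ligand of surface ectoderm, SPP1, osteopontin, PRTG, KCNJ2, a potassium channel, SPNS2, a lipid transporter, IGFBPL1, TCIM, PRSS12, LYPD6B and AC110619.1 stood between them, with CLDN4, GABRP and TFAP2A. In all members together, each of the 15 was within 10 CPM of its level in the cells with high TNNT2, where NDNF was at 14 and HAPLN1 at 24.5 CPM.

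Members with PITX1/DKK2 had fibroblast genes at higher levels than those without, and most measured epicardial and mesothelial genes at lower levels. Of 3524 genes at 50 CPM or more in either kind, 251 (7.12%) were at 2 or more in the 139 members with PITX1/DKK2 and 183 (5.19%) at 0.5 or less, with a median log2 ratio of 0.04. Because the division used PITX1 and DKK2, those genes are not counted. The rule also set these kinds apart by UPK3B, as said above, so the contrast is a description. DLK1, a NOTCH-family ligand and imprinted marker of progenitors, was the most abundant of the leading genes, at 3154 against 178.4 CPM (ratio 17.7, 16.5 to 19). COL15A1, a basement-membrane collagen, was at 156.2 against 3.83 CPM, HAS2, the hyaluronan synthase, at 70.3 against 2.56, and ACTG2, enteric smooth muscle actin, at 77.3 against 2.13. SCN3B, a sodium channel subunit, PCDH10, a protocadherin, and SCG2, a granin, had ratios of 27.6, 23.8 and 16.7. CRABP1, which binds retinoic acid in the cytosol, was at 526.7 against 32.6 CPM. The non-members of cluster 2, with PITX1 at 0.614 and DKK2 at 12.4 CPM, also held several of these genes. In them DLK1 was at 2048 CPM, ACTG2 at 124.1, HAS2 at 45.6, SCG2 at 42, PCDH10 at 37.5 and COL15A1 at 36.5. SCN3B and CRABP1, at 2.7 and 38.3 CPM there, stayed near the members without PITX1/DKK2.

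Of 8 measured epicardial and mesothelial genes 5 were at 0.5 or less in the members with PITX1/DKK2 and 1, SULF1, at 2 or more (419.7 against 112.2 CPM), with BNC2 at 1.08 (median log2 ratio −1.29). ITLN1 was at 12.2 CPM with and 1615 without PITX1/DKK2 (ratio 0.00757). Of genes on no list, SLC34A2, a phosphate transporter of epithelia, was at 0.917 against 74.5 CPM, the former from 3 counts (ratio 0.0123, 0.00253 to 0.0363). SPRR2F was at 17.4 against 411.1 CPM, SST, somatostatin, at 25.1 against 260.8, PCP4, a calmodulin regulator, at 25.1 against 278.9, and LHX9, a LIM-homeodomain factor of gonad and coelomic epithelium, at 8.25 against 72.2. PRG4, the lubricant of serosal and joint surfaces, had 0 counts with PITX1/DKK2 and 60 without, which puts it at least 13.9-fold lower at a limit of 3 counts over the group.

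By list, all 11 measured fibroblast genes were at 2 or more in the members with PITX1/DKK2 (median log2 ratio 2.15). The summed list was at 28287.6 CPM in these members and at 21900.6 in the non-members of cluster 2. It was at 23126.3 CPM in the 120 members in cluster 9, 42 of them without PITX1/DKK2. POSTN was at 2682 against 257.8 CPM, COL1A1 at 6311 against 1053, THY1 at 514.2 against 66.4, LUM, lumican, at 918.3 against 206.9, and PDGFRA, the receptor that marks fibroblast progenitors, at 73.7 against 9.58. Of 5 measured genes of epithelial to mesenchymal transition 3 were at 2 or more. These were SNAI2 (97.8 against 10.2 CPM), ZEB2 (74 against 19.2), both repressors of epithelial genes, and FN1 (1377 against 423.2). VIM was level, at 2197 and 2084 CPM. Of 4 measured smooth muscle genes 2 were at 2 or more, ACTA2 (1183 against 244.2 CPM) and TAGLN (689.3 against 245.2), with CNN1 at 1.54 and DES at 0.889. ACTA2 was at 1736 CPM in the 94 members without UPK3B, 78 in the 45 with it and 2618 in the non-members of cluster 2. Of 5 measured epithelial adhesion genes 4 were at 0.5 or less, and all 3 measured check genes were (WT1, BNC1 and ALDH1A2, median −2.37). Keratins KRT8 and KRT18 of simple epithelia were at 885.6 against 1757 and at 549.6 against 1843 CPM, so KRT18 alone of 3 measured keratins passed 0.5.

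The 45 members with PITX1/DKK2 and UPK3B held some genes above both other kinds. Their KRT19 was at 1146 CPM, above the 955.4 of the members without PITX1/DKK2 and the 253.1 of the 94 without UPK3B. FRZB, a secreted WNT antagonist, was at 1213 CPM against 201.6 and 232 in the same order, PDPN at 725.5 against 129.2 and 188.4, CRABP1 at 821.8 against 32.6 and 379.2, and AMIGO2 at 188 against 15.5 and 74.7. In POSTN they were at 3281 CPM against 257.8 and 2383. PDGFRA was at 3.67 CPM in the 45 and at 108.7 in the 94, and PRRX1, a mesenchymal homeodomain factor, at 0.917 and 73.8. Of the 45 cells 42 lay in cluster 9, whose members as a whole also held the genes high in the 45. In them KRT19 was at 976.4 CPM, FRZB at 924, PDPN at 512.9 and CRABP1 at 656.7. AMIGO2 was at 146.3 CPM there and POSTN at 3158, so these genes are not particular to the 45. Scrublet called 6 of the 45 cells (13.3%). Whether doublets took part in the levels of the 45 was not tested beyond the counts without called doublets.

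Within cluster 2, the 66 members resembled their 468 neighbours in most matrix genes. Of 3447 measured genes, 51 (1.48%) were at 2 or more in the members and 48 (1.39%) at 0.5 or less. COL1A1 was at 7586 against 5458 CPM, POSTN at 815.5 against 683.9, PRRX1 at 120.5 against 131, MGP at 2296 against 3187 and KRT19 at 159.2 against 147.8. PLA2G2A stood out, at 320.3 against 3.44 CPM (ratio 93.1, 63.6 to 141.5), though most of these members had none detected. It was detected in 24.2% of the 66 members and 4.7% of the neighbours, or 13.6% and 1.56% after thinning to 5000 UMIs. It was followed by IGFL2 (97.7 against 12.9 CPM), FRZB (100.2 against 18.4), COL11A1 (179.5 against 34.7), SCG2 (213.1 against 42), FST, follistatin, an activin antagonist (91.3 against 19.2), and ADAM12 (67.9 against 14.7). DCN was at 1726 against 686.7 CPM.

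SHOX2, C7 and CXCL12 were among the genes lower in the members of cluster 2. SHOX2, a homeodomain factor of the sinoatrial node, was at 8.24 against 89.6 CPM (ratio 0.092, 0.0488 to 0.158). TECRL, a gene linked to inherited arrhythmia, was at 10.8 against 72.6 CPM, NEFM, a neurofilament, at 14.6 against 98.9, C7, a complement component, at 86.9 against 532.8, and CXCL12, a chemokine, at 27.9 against 104.4. GATA4, a cardiac zinc-finger factor, was at 25.4 against 67.5 CPM, and TBX18 at 2.54 against 9.71. ALDH1A2 had 0 counts in the members and 83 in the neighbours, at least 5.36-fold lower at a limit of 3 counts over the group. WT1 was at 19 against 6.51 CPM (ratio 2.92, 1.8 to 4.66) and TCF21 at 6.98 against 13 CPM. Scrublet called 10 of the 66 members (15.2%) and 55 of the 468 neighbours (11.8%).

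Secreted WNT regulators beside DKK2 were divided among the members. FRZB was at 348.4 against 24.7 CPM in the other low cells and SFRP1, another soluble frizzled-like antagonist, at 703 against 326.2, so 2 of 4 measured antagonists were at 2 or more and none at 0.5 or less. FRZB was at 924 CPM in the members in cluster 9 and 100.2 in cluster 2, and SFRP1 at 709.1 and 2249. In clusters 10 and 11 FRZB was at 12.5 and 18.6 CPM and SFRP1 at 33.6 and 28.6. SFRP5, an antagonist of proepicardium and inflow tract, followed cluster 11, at 220.5 CPM against 20.5 in cluster 9. DKK1, a second antagonist of LRP5 and LRP6, was below the limit at 32.9 against 7.75 CPM. The antagonists SFRP2 and DKK3 had ratios of 0.904 and 0.801.

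On the receiving side, no DKK receptor reached 50 CPM. LRP6 was at 33.4 CPM in members and 31.5 in the other low cells, LRP5 at 11.3 and 15.4, KREMEN2, a co-receptor for DKK proteins, at 15.9 and 14.6, and KREMEN1 at 5.4 and 9.11. Of the WNT ligands 3 were measured and 2 were at 0.5 or less, WNT6 (35.5 against 349.4 CPM) and WNT5A (9.29 against 55.4). WNT2B was at 57.4 against 35.8 CPM, with 200.4 in cluster 11. None of the 9 listed WNT target genes reached 50 CPM. Ratios lay above 2 for LEF1 (35.6 against 7.65 CPM), NKD1 (25.5 against 7.14), AXIN2 (21.1 against 6.13) and APCDD1 (10.3 against 3.77), near 1 for TCF7 (1.13) and ZNRF3 (1.04), and below 0.5 for RNF43 (3.14 against 10.4). SP5 and LGR5 were at 1.38 and 0.125 CPM in members. AXIN2 ran from 15.8 to 26 CPM over the members in clusters 2, 9, 10 and 11.

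No transcript of the kinin precursor was counted beside the receptor. KNG1, the kininogen that kinins are cut from, KLKB1, the plasma kallikrein that cuts it, and ACE, which degrades kinins, had 0 counts in members. BDKRB2, the constitutive kinin receptor, was at 9.54 against 21.2 CPM. CPE, a carboxypeptidase, and MME, neprilysin, had ratios of 0.674 and 1.14, and SERPING1, the C1 inhibitor that also restrains kallikrein, was at 84.1 against 32.1 CPM. MME was at 278.7 CPM in cluster 9, 79.3 in cluster 2, 36.2 in cluster 10 and 21.5 in cluster 11, and SERPING1 at 77.4, 30.4, 116.8 and 173.2 in that order. Of the serpins beside SERPINE3, all 3 measured were at 2 or more: SERPINB9, SERPINB6 (126.5 against 36 CPM) and SERPINH1, the collagen chaperone HSP47 (544.3 against 193.8 CPM).

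By cluster PITX1 was at 286.4 CPM in the members in cluster 9, 153.5 in cluster 2, 1.43 in cluster 11 and 0 in cluster 10. TBX4, the hindlimb T-box gene, had 0 counts, and TBX5 was at 8.41 CPM against 143.6 in the high cells. Of the measured heart-field factors, HAND2 (122 against 23.2 CPM) and GATA6 (157 against 55.3) were at 2 or more, HAND1 (130 against 435.3) at 0.5 or less, and NR2F2 at 0.524. GATA4 reached 49.6 CPM against 12.9, with 103 and 98.8 CPM in clusters 10 and 11 and 16.1 and 25.4 in clusters 9 and 2. NKX2-5, the cardiac homeodomain factor, had 5 counts in all members.

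Retinoic acid genes stood on both sides of a ratio of 1. The synthetic enzymes ALDH1A2, described above, and RDH10, which makes retinaldehyde, went apart: RDH10 was at 101.6 against 492.6 CPM, with 286.3 in cluster 11. The carrier CRABP1 was at 235.4 against 80.2 CPM, while CRABP2 was at 124.5 against 358.3. CRABP1 was at 656.7 CPM in cluster 9 and 0 in cluster 11, where ALDH1A2 was highest. Of the BMP list, ID1 and ID3, targets of BMP signalling, were at 2 or more (1521 against 697.5 and 688.1 against 277.3 CPM), with ID2 at 1.95. ID4 was highest in cluster 11, at 1589 CPM, and lowest in cluster 2, at 357. BMP4 was at 46.6 against 21.1 CPM.

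Markers of other cell types that moved with the members are given beside the summed level of their list. Of the cardiomyocyte list 7 of 11 genes were measured and 2 were at 2 or more, TNNI1 (213.3 against 54.5 CPM) and TNNI3 (80.4 against 18.6), the slow skeletal and cardiac troponin I. TNNI1 was highest in cluster 10, at 420 CPM, and TNNI3 in cluster 11, at 398. MYH6, MYL7, MYL4, TTN and TNNC1, which dominate the cells with high TNNT2, had ratios from 0.799 to 1.05 (MYH6 124.7 against 151.1 CPM). Below the 50 CPM limit, RYR2 had a ratio of 1.88, NPPA 0.839, PLN 0.686 and ACTN2 0.537. The summed list was at 1194 CPM in members, 1042 in the other low cells and 38611.6 in the high cells. The endothelial receptors KDR and TEK were at 57.1 against 3.57 and 6.65 against 0.648 CPM. TIE1 and VWF had 3 and 1 counts in members, and PECAM1 and CDH5, which define endothelium, 0, and the summed list was at 64.3 CPM against 4.96. In the neural list STMN2 (118.7 against 14.8 CPM) and TUBB3 (72.9 against 28.8) were at 2 or more, with SOX2, PAX6 and ELAVL4 at 0 and the summed list at 191.6 against 43.9 CPM. Their part in the other values was not tested. PTPRC and SOX10, which define blood and neural crest, were at 0 counts. Cycling genes were no higher: none of 4 measured S-phase and none of 7 measured mitotic genes passed either limit (median log2 ratios −0.54 and −0.36), and MKI67 was detected in 29.6% of members and 33.6% of the other low cells, or 18.7% and 25.4% after thinning. The high cells held MKI67 in 26% unthinned and 18.3% thinned. Of 5 measured dissociation and stress genes 3 were at 0.5 or less (FOS, FOSB and EGR1), with JUN at 0.734 and ATF3 at 0.65.

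The antibody tag gave a readout that the rule did not use. Members had a median of 47 CD34 tag UMIs per cell (95% interval of the median 44 to 51, quartiles 33 and 71), against 40 in the other low cells (39 to 41, quartiles 29 and 56) and 80 in the high cells (quartiles 43 and 247). The members' distribution thus overlapped that of the other low cells over most of its range. Per 10000 RNA UMIs, which allows for the deeper RNA of members, the medians were 23.6, 25 and 62.1, so the order of the members and the other low cells turned. CD34 transcripts gave 1 count in 1 member, 20 in 20 of the other low cells and 703 in 496 of the high cells.

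Members in cluster 2 had the highest tag levels, with a median of 86 (68 to 109, quartiles 55.8 and 141.5), but their neighbours in that cluster had 69 (64 to 73), and per 10000 RNA UMIs the members were the lower, 36.9 against 42. Those in clusters 10, 9 and 11 had medians of 40, 47.5 and 53. The 94 members with PITX1/DKK2 and without UPK3B had a median of 72 (61 to 81), the 45 with both 47 (38 to 56) and the 222 without PITX1/DKK2 42 (39 to 45). No CD34 transcript was counted in the 139 members with PITX1/DKK2. Per 10000 RNA UMIs the medians of these kinds were 32.3, 20.9 and 21.4. Of the 94 members 57 lay in cluster 2, where the non-members were also high.

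**Figure D5:**
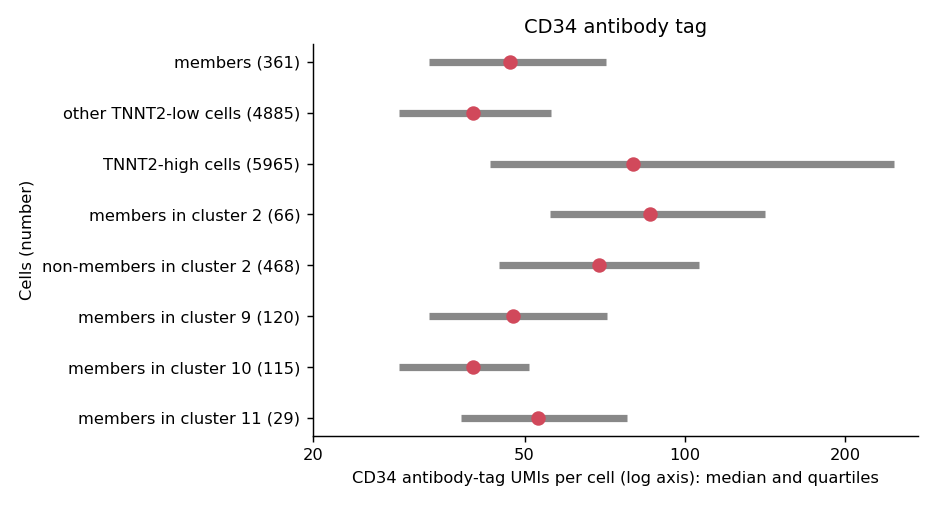
Median (points) and quartiles (bars) of CD34 antibody-tag UMIs per cell on a log axis, for members, comparison cells and members by cluster, with cell numbers in parentheses. Members (median 47) lie close to the other cells with low TNNT2 (40), and the members in cluster 2 (86) lie near their neighbours in that cluster (69) and the cells with high TNNT2 (80).

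At the edge of the rule, 24 members had exactly 4 UMIs of the selecting genes and 41 non-members had 3 UMIs of at least 2 genes. Those just inside had WT1 at 27.6 CPM, BNC1 at 57.4, EPCAM at 463.5 and GABRP at 769.7, and those just outside had WT1 at 17.9, BNC1 at 26.8, EPCAM at 582.4 and GABRP at 983.8. Both sides thus held epithelial transcripts. The 256 members with at least 10 UMIs had WT1 at 51, EPCAM at 37.9 and GABRP at 57.6 CPM. A further 114 cells had at least 4 UMIs of a single selecting gene and so were not members, 66 of them by UPK3B, 38 by BDKRB1 and 9 by DKK2, and their WT1 was at 34.9 CPM.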

How the data were processed

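Transcripts and CD34 antibody tags were counted in the cells of 1 HES2 culture. Per the file headers, the submitters' processing notes and the labels, the authors made the deposited UMI counts with Cell Ranger 6.1.2 on GRCh38; the counts are whole numbers and were not normalized, and no cell annotation was used here. The RNA library held 239181462 UMIs over 36601 genes and the tag library 2773855 UMIs. Each barcode stood for 1 cell in both libraries, and the libraries share barcodes by design. The 2 libraries are repeat views of the same cells, not replicates.

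For each group of cells the counts were added up and scaled to CPM with Python 3.11.15, numpy 2.4.6 and scipy 1.17.1. Genes at 50 CPM or more in the higher group were measured, and ratios of at least 2 or at most 0.5 were counted. Levels have exact Poisson, ratios exact conditional binomial and shares exact Clopper-Pearson intervals (95%), for counting error only; UMIs are molecules, so PCR copies do not enter. The comparison code recovered known ratios in simulated counts. For shares, cells were thinned to 5000 UMIs. Doublets were scored with Scrublet in scanpy 1.11.5 (score limit 0.109, 1435 of 12119 barcodes called, 11.8%) and kept. Cells with low TNNT2 were clustered on 2000 variable genes without the 5 selecting genes (30 principal components, 15 neighbours, Leiden resolution 1). Free RNA was not estimated, and the cells with high TNNT2 gave a reference level only.

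The text names the selecting genes, the 15 highest and 15 lowest ratios, and members of 32 gene lists (272 of 273 names found); genes named for the division by PITX1 and DKK2 and within cluster 2 were chosen after their values were seen, and some genes that the rule takes in are not reported here. The members and lists were chosen with earlier results of these data known. Symbols with more than 1 identifier (10) were kept apart. Promoters came from RefSeq. Alternatives changed the marker limits, the doublet, mitochondrial, UMI and TNNT2 limits, the comparison cells, the CPM limit, the scaling, the thinning depth and the clustering resolution.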

Additional observations from a re-analysis of the deposited data

Results flagged for a closer look

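Among the 5965 cells with TNNT2 at 1000 CPM or more, which lie outside the comparisons, 51 (0.855%) held at least 4 UMIs of the selecting genes with at least 2 of the 5 detected. They are given here because they meet the marker limits in cells that the TNNT2 limit left out. Scrublet called 44 of the 51 as doublets, against 711 of all 5965 (11.9%).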

How the results depend on the processing

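The number of members, 361, was 402 at a limit of 3 UMIs, 317 at 6, 179 with 3 of the 5 genes required, 444 with no upper UMI limit, 268 with TNNT2 under 300 CPM and 210 in cells of 10000 to 25000 UMIs. Leaving a gene out of the rule gave 217 (UPK3B), 311 (DKK2) and 207 (BDKRB1). In the other 4 alternatives it stayed within the counting interval; without the cells Scrublet called it was 334. The ratio of the summed check genes, 5.2, was 3.44 with 3 genes required, 4.41 with no upper UMI limit, 4.8 with TNNT2 under 300 CPM and 6.79 against comparison cells with 0 UMIs of the selecting genes. A limit of 20 CPM in place of 50 raised the genes at 2 or more from 270 to 555 and those at 0.5 or less from 306 to 547, since 7174 genes were then measured. The median tag level of members over the other low cells, 1.18, reversed to 0.946 per 10000 RNA UMIs. WT1 was detected in 35.3% of members at 10000 UMIs against 21.7% at 5000. At Leiden resolution 0.5, 4 clusters held at least 10 members, in place of 5. The WT1 ratio between members without and with PITX1/DKK2 ran from 4.75 to 5.92 over 10 alternatives, all chosen after seeing the data. No paired analysis was possible because the series holds 1 culture and no result comes from a test. Genes under about 20 CPM rest on few counts in groups of under 100 cells.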
